A study of Canis lupus familiaris with 45 samples.

Results

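KCND3, KCNIP2, KCNJ2 and KCNA5 encode subunits of the potassium channels that repolarise heart muscle cells, and their left ventricular signals were followed here through pacing-induced heart failure in dogs. The genes were taken by name. Every probe set annotated to 1 of these symbols and to no other was used, which gave 9 of the 23836 probe sets on the array and 4 of the 6540 genes that had such a probe set. KCND3 and KCNA5 had 3 probe sets each, KCNIP2 had 2 and KCNJ2 had 1.

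The action potential of a ventricular cell is ended by potassium ions leaving through several kinds of channel. KCND3 encodes Kv4.3, the pore of the fast transient outward current, and KCNIP2 encodes KChIP2, the cytosolic calcium-binding subunit that brings Kv4 channels to the membrane and shapes their gating. In the dog ventricle KChIP2 transcript is known to be richer towards the outer wall than the inner wall. KCNJ2 encodes Kir2.1, the inward rectifier that holds the resting potential and completes repolarisation. KCNA5 encodes Kv1.5, the pore of the ultrarapid delayed rectifier, which is best known from the atrium. Loss of transient outward and inward rectifier current is a textbook feature of the failing heart.

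All 15 dogs were male and age-matched. The 3 Day-0 dogs were not paced; in the others a VVI pacemaker drove the right ventricle at 240 beats per minute. Pacing lasted 3 days in the Day-3 group, a week in Week-1, 2 weeks in Week-2, and 3 to 4 weeks, up to end-stage failure, in the End-stage group. Each group held 3 dogs, and full-thickness left ventricular tissue of each dog gave 3 separate RNA isolations, each on its own single-colour array, so that 45 arrays described 15 dogs. No genotype or drug was part of the design, and the labels do not name a sham operation for the Day-0 dogs. Values below are log2 signals averaged over the 3 isolations of a dog, and an SD is over the 3 dogs of a group.

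The array medians lay between signals of 33.3 and 48.6. Cardiomyocyte markers were bright: 11 of 15 listed markers were measured, from RYR2 at a mean log2 signal of 10.96 to MYH7 at 13.51, and their summed log2 signal lay between 16.25 and 16.89 in all 15 dogs. Over the tested probe sets, 39 of 45 arrays resembled another array of their own dog most. Of the 6 exceptions 5 were closest to a dog of the same number in another group, by Pearson r across centred probe sets, which are not independent replicates. Isolations 1 and 3 of Week-1 dog 1 were closest to End-stage dog 1 (r = 0.261 and 0.452) and isolation 1 of End-stage dog 1 to Week-2 dog 1 (0.329). Isolation 3 of Week-1 dog 2 was closest to Week-2 dog 2 (0.181) and isolation 2 of Week-2 dog 2 to End-stage dog 2 (0.26). The labels were followed throughout, and the members' Week-1 and End-stage differences are also given without Week-1 dog 1 and End-stage dog 1. In such bulk tissue, fewer cells of a type and less RNA per cell cannot be told apart. Dogs were labelled as biological replicates, so the p values of group differences set them against the spread between dogs. That spread is of means over isolations and so also holds differences between isolations.

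Of the 9 probe sets 7 passed the filter on dim probe sets and were tested with limma. The other 2, 1583046_at for KCND3 and 1582855_at for KCNA5, had mean log2 signals of 2.04 and 1.31, far under the filter at a signal of 22.8, and were left out of the limma fit. Levels of different probe sets are not compared, since a probe set's brightness depends on its probes.

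No difference of a member between groups passed this test. At an adjusted p under 0.05, 0 of 7 member probe sets passed at Day-3 against Day-0, where 0.0% of all 14301 probe sets did, and 0 of 7 at Week-1, where 0.028% did. Likewise 0 of 7 passed at Week-2 against 0.0839% of all probe sets, and 0 of 7 at End-stage against 0.014%. Between consecutive paced groups 0 of 7 passed each time, and 0.0% of all probe sets did in all 3 comparisons. For the mean of the 4 paced groups against Day-0, 0 of 7 passed against 0.301% of all probe sets, and in the F test for any difference among the 5 groups 0 of 7 passed against 0.0%. With so few calls anywhere, 0 among 7 does not set these genes apart. The 4 comparisons with Day-0 share the same 3 unpaced dogs. At an unadjusted p under 0.05 the limma fit had 0 of 7 member probe sets at Day-3, 1 at Week-1, 1 at Week-2 and 0 at End-stage, where 8.07%, 9.0%, 11.2% and 8.23% of all probe sets had such a p.

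**Figure D1:**
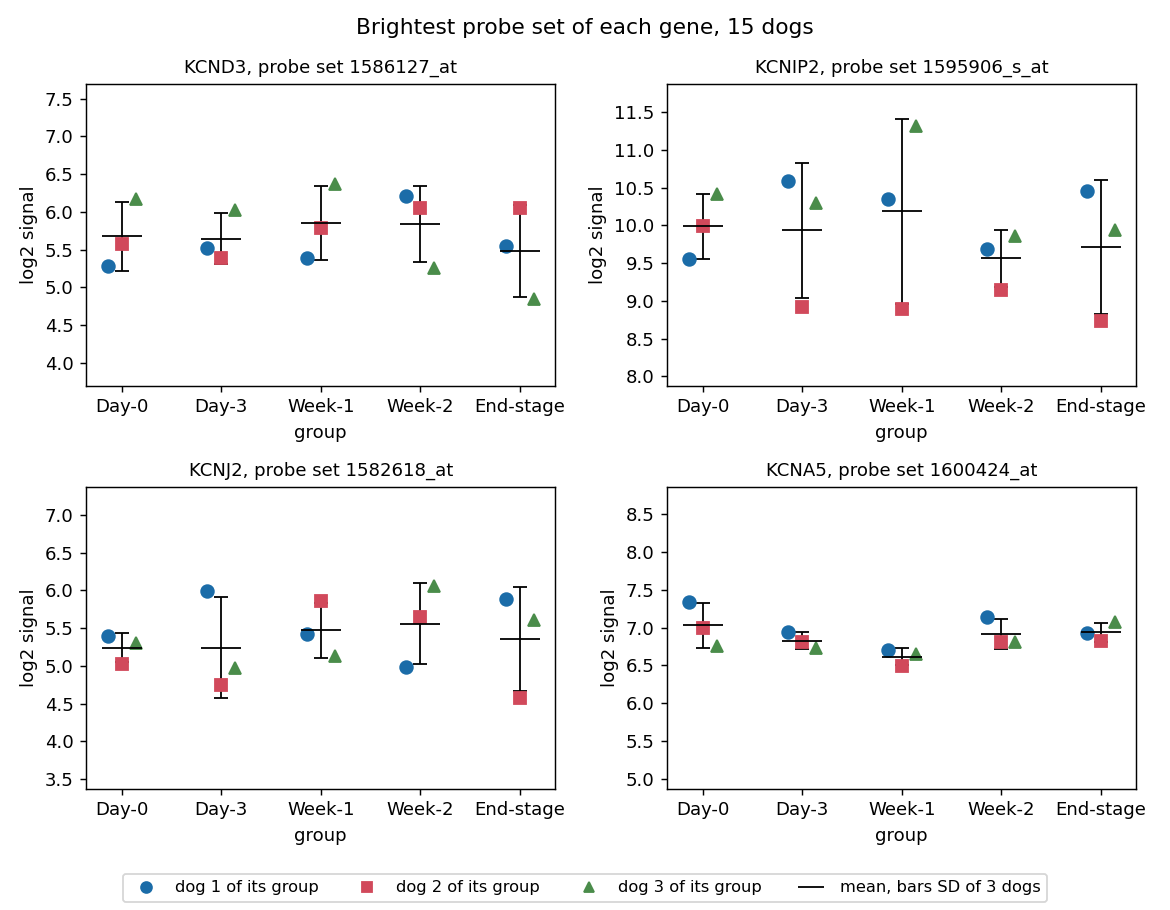
Log2 signal (y axis) of the brightest probe set of KCND3, KCNIP2, KCNJ2 and KCNA5 by group (x axis), with 1 point per dog and a different marker for dogs 1, 2 and 3 of a group; black lines are group means and bars the SD of 3 dogs. Every panel spans the same log2 range, so the wide scatter of KCNIP2, with dog 2 lowest in each paced group, and the narrow one of KCNA5 can be read against each other.

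KCNIP2, the accessory subunit of the transient outward channel, varied more between dogs than any other member. Probe set 1595906_s_at read 9.55, 9.99 and 10.42 in the 3 Day-0 dogs and 10.59, 8.92 and 10.29 in the Day-3 dogs. It read 10.35, 8.89 and 11.32 at Week-1, 9.69, 9.14 and 9.86 at Week-2, and 10.46, 8.74 and 9.94 at End-stage. Every paced group thus overlapped the Day-0 dogs, and the lowest and highest dogs, with linear signals of 426 at End-stage and 2559 at Week-1, were 6.0-fold apart. The group means were 9.99 ± 0.43 (SD, n = 3 dogs) at Day-0, 9.94 ± 0.89 at Day-3, 10.19 ± 1.22 at Week-1, 9.56 ± 0.38 at Week-2 and 9.71 ± 0.89 at End-stage. Ordered from Week-1 through Day-0, Day-3 and End-stage to Week-2, neighbouring means differed by less than the SD of either group.

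The other KCNIP2 probe set, 1582775_at, followed the same dogs. It read 7.08, 7.30 and 8.07 at Day-0, 8.42, 5.99 and 7.60 at Day-3, and 7.98, 6.09 and 8.88 at Week-1. It read 7.18, 6.33 and 7.69 at Week-2 and 8.04, 5.02 and 7.49 at End-stage, a 14.5-fold range over 15 dogs. The low end of this range is End-stage dog 2, a dim value (linear signal 32.5) from uneven isolations of 4.98, 3.98 and 6.10. Its means were 7.48 ± 0.52 at Day-0 and 6.85 ± 1.61 at End-stage (n = 3 dogs each), with 7.33 ± 1.24, 7.65 ± 1.43 and 7.07 ± 0.69 between them in time. The 2 probe sets correlated at a Pearson r of 0.964 over the 15 dogs (Spearman rho = 0.968, permutation p = 1e-05 for each, the smallest that 100000 resamples can give, and 9e-05 adjusted over 9 relations). The r was 0.977 without the 2 dogs farthest from the median and 0.972 for deviations from the group means. The probe sets were read on the same arrays.

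The low KCNIP2 signals of the paced dogs fell to the dog numbered 2 in each group, a pattern that was noticed in the values and is therefore only described. In probe set 1595906_s_at this dog lay below the mean of the other two by 2.87-fold at Day-3, 3.85-fold at Week-1, 1.55-fold at Week-2 and 2.76-fold at End-stage. In 1582775_at the same dogs lay lower by 4.06-fold, 5.07-fold, 2.16-fold and 6.69-fold, the last in End-stage dog 2 with its dim and uneven isolations. In the unpaced group the dog numbered 2 lay between the other two, with log2 differences of 0.01 and -0.27 from their mean. The average log2 difference over the 4 paced groups was -1.39 in the first probe set and -2.05 in the second. Of all 14301 tested probe sets, 625 (4.37%) had the dog numbered 2 lowest in all 4 paced groups, and 449 (3.14%) had it highest in all 4. By average difference, 17 and 3 probe sets lay lower than these 2, and the 17 include the other KCNIP2 probe set. This rank is not scaled by the spread between dogs, which was wide for KCNIP2, and it is no test of a pattern seen in the same values. The labels give these numbers as biological replicates and state no litter, surgery day or batch behind them.

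**Figure D2:**
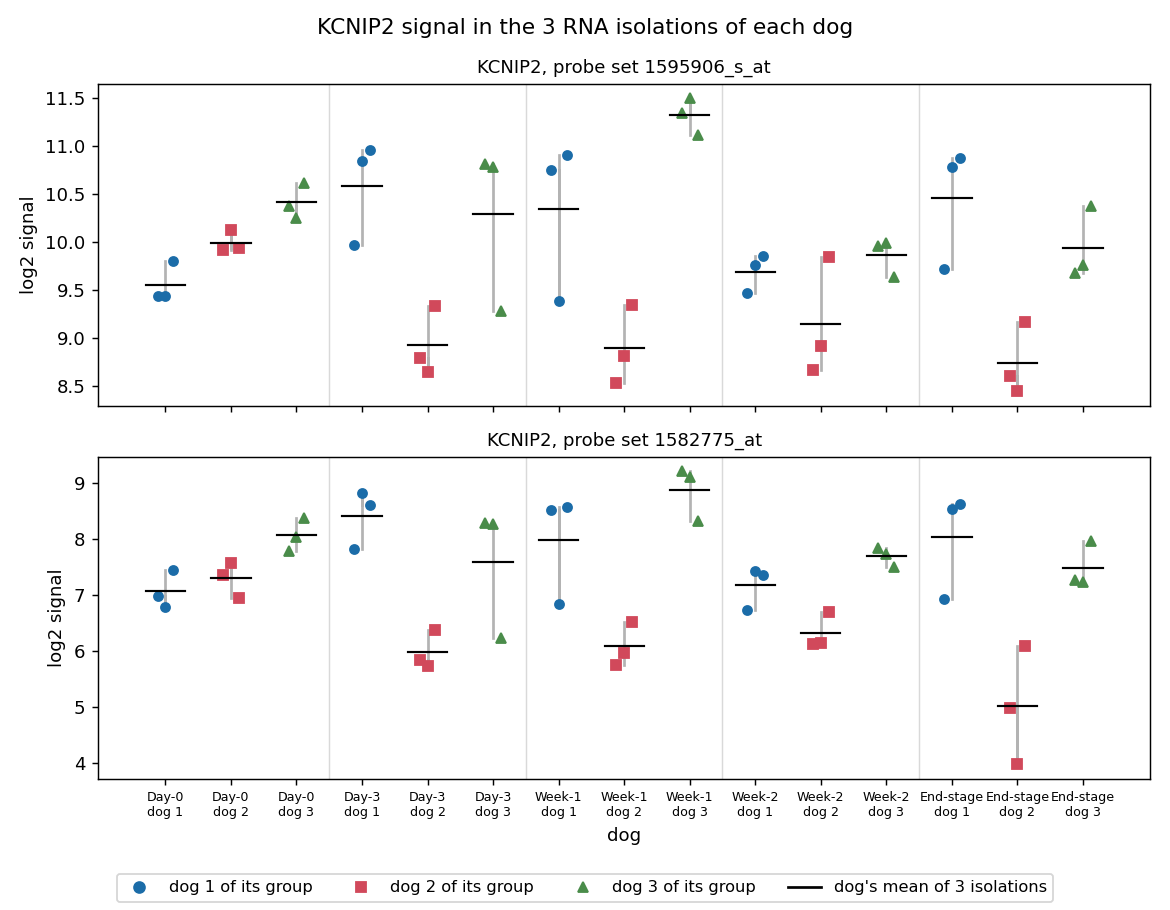
Log2 signal (y axis) of both KCNIP2 probe sets in the 3 RNA isolations of each of 15 dogs (x axis); points are isolations, coloured by dog number, and black lines the dog's mean. In 1582775_at the isolations of paced dogs numbered 2 lie between 3.98 and 6.70, and of the other paced dogs' isolations only 1, at 6.23 in Day-3 dog 3, lies in that range. The brighter 1595906_s_at separates them less. There the isolations of paced dogs numbered 2 lie between 8.44 and 9.84. Isolations of other dogs lie in that range in every paced group, such as 9.28 in Day-3 dog 3, 9.38 in Week-1 dog 1, 9.46 in Week-2 dog 1 and 9.68 in End-stage dog 3.

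RNA isolations of 1 heart also differed for this gene. In probe set 1595906_s_at the isolations of Day-3 dog 3 read 10.82, 10.78 and 9.28, those of Week-1 dog 1 read 10.75, 9.38 and 10.91, and those of End-stage dog 1 read 9.72, 10.79 and 10.88. In each of these dogs 1 isolation stood more than 1 log2 unit below the rest. The isolations of Week-1 dog 3, the brightest dog, read 11.35, 11.5 and 11.12, and so stayed close together. The SD between isolations of a dog was 0.474 and 0.628 for the KCNIP2 probe sets, against a median of 0.307 over all tested probe sets. Between dogs of the same group the SD was 0.825 and 1.174, larger than that of 98.4% and 99.6% of tested probe sets, whose median was 0.268.

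**Figure D3:**
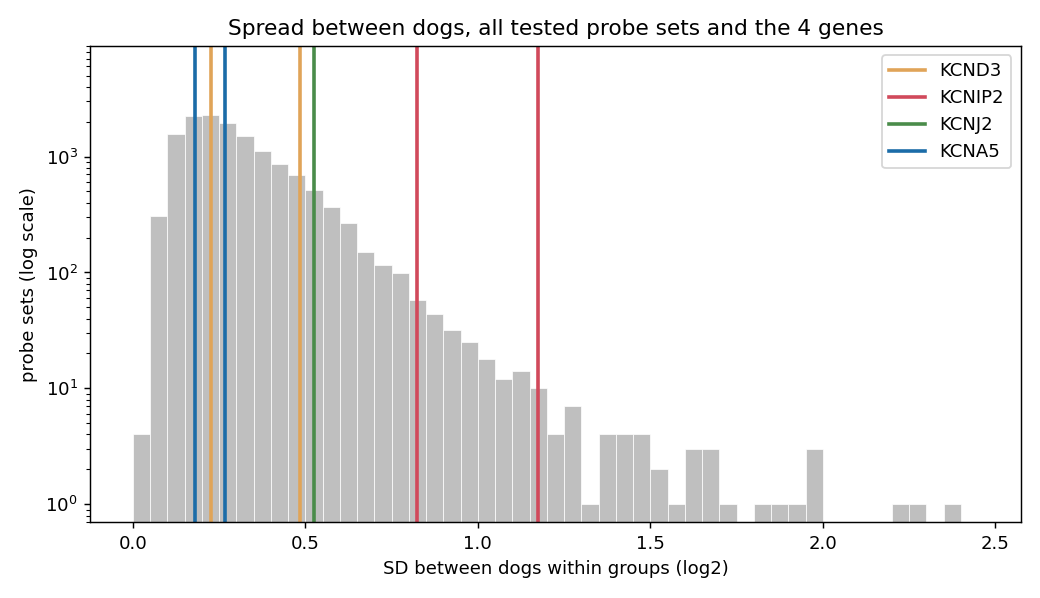
Number of tested probe sets (y axis, log scale) by the SD between dogs within groups (x axis, log2 units), with vertical lines for the 7 tested member probe sets. KCNIP2 lies in the right tail at 0.825 and 1.174, whereas the KCNA5 lines at 0.181 and 0.267 lie at or below the median of 0.268.

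This spread set what could be seen of pacing in KCNIP2. The difference from Day-0 in 1595906_s_at was -0.05 at Day-3, 0.20 at Week-1, -0.42 at Week-2 and -0.28 at End-stage, with an SE of 0.563 each and adjusted p = 0.992, 0.964, 0.858 and 0.958. The 95% interval at End-stage ran from -1.48 to 0.93, that is from 0.359 to 1.9 times the Day-0 signal, which leaves a wide range of lower and higher levels unresolved. In 1582775_at the End-stage difference was -0.63 (SE 0.799, interval -2.34 to 1.07, adjusted p = 0.922). Without the 5 dogs numbered 2, a setting added after their values were seen, the End-stage difference turned to 0.22 and 0.19 in the probe sets (adjusted p = 0.977 and 0.987) and the Day-3 difference to 0.46 and 0.43. Without Week-1 dog 1 and End-stage dog 1 the End-stage differences were -0.65 and -1.23, and the Week-1 difference of 1595906_s_at was 0.12. Over single dogs left out, the End-stage value of 1595906_s_at ran from -0.65 without dog 1 to 0.21 without dog 2 of that group.

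Other readouts of the dogs numbered 2 were set beside these values, with marker differences taken from the mean of the other dogs of the group. Their GAPDH 3-prime over 5-prime log2 ratio, a sign of RNA quality, was -0.10, -0.13, -0.08 and -0.03 in the 4 paced groups, within the range of -0.19 to 0.03 over the other dogs. The actin ratio was -2.58, -3.04, -2.43 and -2.55 in the same dogs, lower than in both other dogs of the group at Day-3, Week-1 and End-stage but not at Week-2, and it was as low in Day-0 dogs 2 and 3, at -3.04 and -2.90. Summed macrophage and leukocyte markers (10 of 14 measured) lay lower in the paced dogs numbered 2 by log2 values of -0.69, -0.50, -0.24 and -0.22 and higher by 0.28 at Day-0. Their sums ranged from 9.73 to 10.15 at Day-0, 9.76 to 10.69 at Day-3, 9.71 to 10.51 at Week-1, 9.90 to 10.15 at Week-2 and 9.96 to 10.40 at End-stage. At End-stage the sums of dog 2 (9.958) and dog 1 (9.964) were nearly equal. Atrial markers (4 of 8 measured: MYL7, MYL4, NR2F2 and GJA5) lay lower by -0.27, -0.80, -0.81 and -0.21 and higher by 0.23 at Day-0. Their sums ranged from 11.71 to 12.04 at Day-0, 11.43 to 11.97 at Day-3, 10.88 to 11.77 at Week-1, 10.80 to 12.05 at Week-2 and 11.07 to 11.63 at End-stage. Dog 2 had the lowest atrial sum at Week-1 and Week-2 only. At Day-3 it equalled dog 1 (11.432 against 11.431), and at End-stage it lay above dog 3 (11.137 against 11.067). Cardiomyocyte markers lay higher in the paced dogs numbered 2 by 0.08 to 0.41, and by 0.28 at Day-0. Dog 1 had the lowest cardiomyocyte sum in every group, from 16.251 at Week-1 to 16.345 at Day-0. At Week-2 dog 2 (16.612) lay below dog 3 (16.806). Endothelial markers (6 of 12 measured) also lay higher in the paced dogs numbered 2, by 0.33, 0.03, 0.07 and 0.20 against 0.03 at Day-0. Smooth muscle and pericyte markers (6 of 13) lay higher by 0.36, 0.15, 0.05 and 0.17 against -0.04 at Day-0, and adipocyte markers (2 of 6) by 0.71, 0.95, 0.09 and 0.41 against 1.09. The smooth muscle and pericyte sum was also lowest in dog 1 of every group. In that sum dog 2 lay below dog 3 at Week-1 (13.875 against 13.895) and at Week-2 (13.775 against 13.903). Neuron and glia markers (3 of 10) differed by 0.87, -0.20, 0.18 and 0.68 against -0.28, and fibroblast markers (6 of 11) by -0.30, -0.09, 0.13 and 0.26 against 0.47. The part of the actin ratio and of these cell types in the KCNIP2 result was not tested.

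KCND3, the pore subunit partnered by KChIP2, did not share this pattern. Its brightest probe set, 1586127_at, read 5.28, 5.58 and 6.17 at Day-0, 5.52, 5.39 and 6.02 at Day-3, and 5.39, 5.79 and 6.37 at Week-1. It read 6.21, 6.05 and 5.26 at Week-2 and 5.55, 6.05 and 4.85 at End-stage. All groups overlapped, and the dog numbered 2 was the lowest of its group at Day-3 and the highest at End-stage. The means were 5.68 ± 0.45 (SD, n = 3 dogs) at Day-0, 5.65 ± 0.34, 5.85 ± 0.49 and 5.84 ± 0.51 at the next 3 stages and 5.48 ± 0.61 at End-stage. Neighbours in the order of means differed by less than the smallest of these SDs. The End-stage difference was -0.19 (SE 0.355, 95% interval -0.95 to 0.57, adjusted p = 0.954). It was -0.23 without Week-1 dog 1 and End-stage dog 1, and its sign depended on single dogs: it was 0.13 without End-stage dog 3. The isolations of that dog were themselves far apart, at 6.128, 5.056 and 3.355.

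The second KCND3 probe set, 1583047_at, lay lowest at Week-1. It read 5.69, 5.76 and 5.62 at Day-0, 5.76, 5.93 and 5.74 at Day-3, and 5.11, 5.5 and 5.29 at Week-1. It then read 5.86, 6.25 and 5.60 at Week-2 and 5.73, 5.16 and 5.23 at End-stage. The 3 Week-1 dogs lay below every dog of Day-0, Day-3 and Week-2, and 2 of 3 End-stage dogs did so too. Week-1 differed from Day-0 by -0.39 (SE 0.208, adjusted p = 0.625), or -0.30 without Week-1 dog 1 and End-stage dog 1, and from Day-3 by -0.51 (adjusted p = 0.994); Week-2 differed from Week-1 by 0.61 (95% interval 0.16 to 1.05, adjusted p = 0.823) and End-stage from Week-2 by -0.53 (adjusted p = 0.999). The last 3 of these had unadjusted p = 0.027, 0.0109 and 0.0228 in limma, where 4.82%, 5.78% and 4.2% of all probe sets had one under 0.05. Without Week-1 dog 1 and End-stage dog 1 they were -0.42, 0.51 and -0.71. The last of them was -0.36 without Week-2 dog 2 and -0.25 without the 5 dogs numbered 2. The 2 KCND3 probe sets correlated at r = 0.156 over 15 dogs (rho = 0.107, permutation p = 0.58 and 0.708, adjusted p = 0.921 and 0.845), with r = 0.144 without the 2 farthest dogs.

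**Figure D4:**
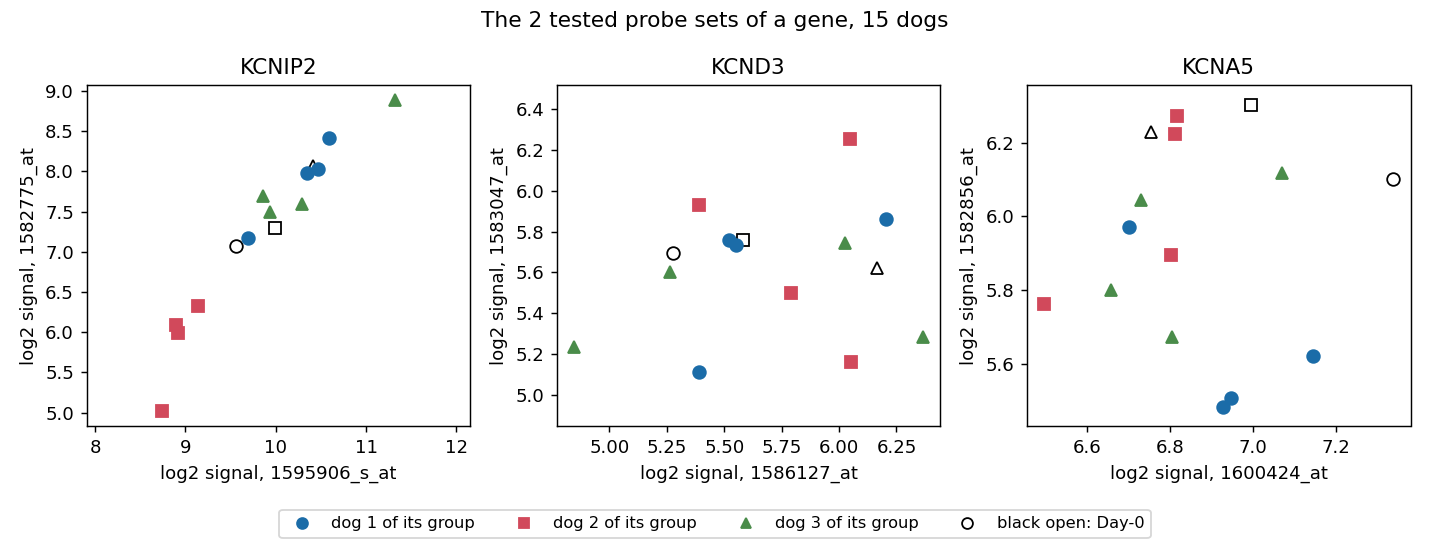
Log2 signals of the 2 tested probe sets of KCNIP2, KCND3 and KCNA5 plotted against each other, 1 point per dog (n = 15), with Day-0 dogs as black open symbols and paced dogs coloured by dog number. The KCNIP2 points lie along a line (r = 0.964), and those of KCND3 (r = 0.156) and KCNA5 (r = 0.045) do not.

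KCNJ2, the inward rectifier pore, read 5.39, 5.03 and 5.30 in its only probe set, 1582618_at, at Day-0. The values were 6.0, 4.75 and 4.97 at Day-3 and 5.42, 5.86 and 5.13 at Week-1, then 4.98, 5.64 and 6.06 at Week-2 and 5.88, 4.58 and 5.61 at End-stage. The unpaced dogs lay close together, inside the range of the Day-3, Week-2 and End-stage dogs, and they overlapped the Week-1 dogs. The dog numbered 2 was the lowest of its group at Day-0, Day-3 and End-stage (1.25-fold, 1.66-fold and 2.24-fold below the mean of the others) but the highest at Week-1. The means ran from 5.24 ± 0.19 (SD, n = 3 dogs) at Day-0 and 5.24 ± 0.67 at Day-3 through 5.36 ± 0.69 at End-stage and 5.47 ± 0.37 at Week-1 to 5.56 ± 0.54 at Week-2. Each step in this order was smaller than the SDs of the groups it joined. At End-stage it lay 0.12 above Day-0 (SE 0.385, 95% interval -0.71 to 0.94, or 0.613 to 1.92 times the Day-0 signal, adjusted p = 0.975). It turned to -0.15 without Week-1 dog 1 and End-stage dog 1 and to -0.26 when isolation 3 of every dog was left out. Its SD between isolations was 0.632, larger than its SD between dogs of 0.525, which is taken on means of 3 isolations. The same order held for the tested probe sets of KCND3 and KCNA5 and for the medians of all tested probe sets (0.307 and 0.268). Only in KCNIP2 was the SD between dogs the larger.

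KCNA5, the ultrarapid pore, varied least between dogs when each gene is taken by its brightest probe set. Probe set 1600424_at read 7.34, 6.99 and 6.75 at Day-0, 6.95, 6.81 and 6.73 at Day-3, and 6.70, 6.50 and 6.66 at Week-1. It read 7.14, 6.80 and 6.81 at Week-2 and 6.93, 6.82 and 7.07 at End-stage. The 3 Week-1 dogs were the lowest 3 of all 15, and the other paced groups overlapped Day-0. The dog numbered 2 was the lowest of its group at Week-1, Week-2 and End-stage, each time 1.13-fold below the mean of the others, but not at Day-3. The means were 7.03 ± 0.29 (SD, n = 3 dogs), 6.83 ± 0.11, 6.62 ± 0.11, 6.92 ± 0.20 and 6.94 ± 0.13 in order of time. Week-1 lay 1.33-fold below Day-0 (log2 -0.41, SE 0.161, adjusted p = 0.438, unadjusted p = 0.0226 in limma) and by -0.21 below Day-3 (adjusted p = 0.994), the next group in the order of means, which it did not overlap. Without Week-1 dog 1 and End-stage dog 1 the Week-1 difference was -0.45, and it shrank to -0.26 without Day-0 dog 1 (adjusted p = 0.709; -0.55 to -0.26 over single dogs left out). At End-stage it was -0.09, also without the same pair of dogs (95% interval -0.44 to 0.26, or 0.74 to 1.19 times the Day-0 signal, adjusted p = 0.953), the narrowest bound among the members at this stage.

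The second KCNA5 probe set, 1582856_at, was also below Day-0 on average in every paced group, and at Day-3 and End-stage the size rested on 1 dog: -0.29 at Day-3 was -0.077 without Day-3 dog 1, and -0.25 at End-stage was -0.016 without End-stage dog 1. It read 6.10, 6.30 and 6.23 at Day-0, 5.51, 6.22 and 6.04 at Day-3, and 5.97, 5.76 and 5.80 at Week-1. It read 5.62, 5.90 and 5.67 at Week-2 and 5.48, 6.27 and 6.12 at End-stage. The Week-1 and Week-2 dogs all lay below the Day-0 dogs, and in the other paced groups 1 or 2 dogs overlapped them. Here the dog numbered 2 was the highest of its group at Day-3, Week-2 and End-stage and the lowest at Week-1. The largest difference was -0.48 at Week-2 (1.4-fold, SE 0.222, adjusted p = 0.441, unadjusted p = 0.0476 in limma), and over the 4 paced groups it was -0.35 (adjusted p = 0.483). An exact two-sided permutation test of 12 paced against 3 unpaced dogs over 455 splits gave p = 0.0527, and 0.237 adjusted over the 9 member probe sets. Over the 15 dogs this probe set and 1600424_at correlated at r = 0.045 (rho = 0.075, permutation p = 0.872 and 0.792, adjusted p = 0.921 and 0.845).

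Groups that did not overlap Day-0 were therefore found for 3 of 7 member probe sets at Week-1, all lower: both of KCNA5 and 1583047_at of KCND3. Of all tested probe sets 16.1% did not overlap at Week-1. At Week-2 it was 1 of 7 (1582856_at) against 17.3%, and at Day-3 and End-stage 0 of 7 against 12.6% and 14.3%. With 7 probe sets of 4 genes, these shares were not tested against each other. Endothelial markers (6 of 12 measured: PECAM1, VWF, TIE1, TEK, FLT1 and ENG) were also low at Week-1. Their summed log2 signal ranged from 11.53 to 11.57 there, below the 11.68 to 11.74 of Day-0, and from 11.55 to 11.97 at Day-3, 11.92 to 12.02 at Week-2 and 11.74 to 12.03 at End-stage. Neuron and glia markers (3 of 10 measured) lay below Day-0 at Week-1 as well, with sums of 8.95 to 9.15 against 9.33 to 9.72, and ranged from 8.91 to 9.93 at Day-3, 9.20 to 9.50 at Week-2 and 8.82 to 9.56 at End-stage. Adipocyte markers (2 of 6 measured) lay above Day-0 at Week-1, at 9.83 to 11.24 against 8.59 to 9.77, and ranged from 8.69 to 10.77 at Day-3, 9.40 to 9.55 at Week-2 and 9.96 to 11.04 at End-stage. The part of these 3 marker lists in the low KCNA5 and KCND3 signals at Week-1 was not tested.

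**Figure D5:**
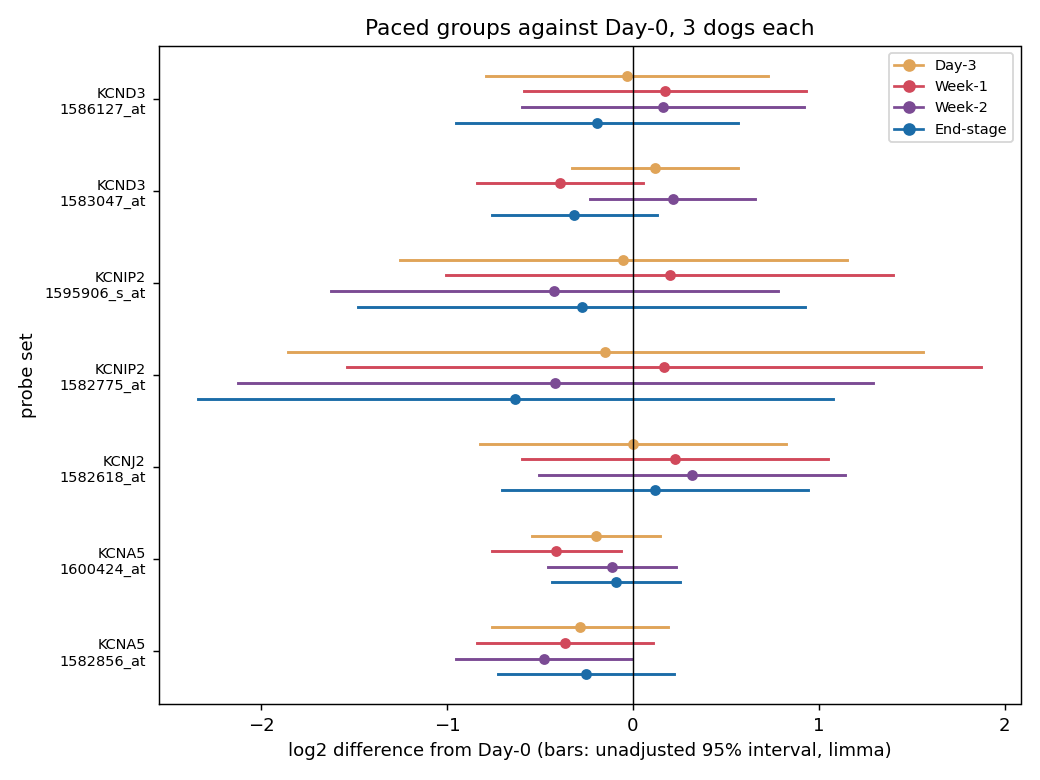
Log2 difference from Day-0 (x axis) for the 7 tested member probe sets (y axis) in each paced group, from the limma fit of 15 dogs; points are estimates and bars unadjusted 95% intervals. All intervals include 0 except those of KCNA5 1600424_at at Week-1 and 1582856_at at Week-2, and the KCNIP2 intervals are the widest.

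The 2 dim probe sets had signals far below the filter, and were tested only by permutation of dogs. KCND3 1583046_at had a mean of 1.64 ± 0.50 at Day-0 (SD, n = 3 dogs) and between 1.88 ± 0.13 and 2.37 ± 0.13 in the paced groups, a difference of 0.50 with exact two-sided permutation p = 0.0286 for 12 against 3 dogs and 0.237 adjusted over 9 probe sets. KCNA5 1582855_at had dogs between 0.17 and 3.04 and exact permutation p = 0.727. At Week-1 and Week-2 all dogs of KCND3 1583046_at lay above the Day-0 dogs. The brighter 1583047_at of the same gene lay below the Day-0 dogs at Week-1 and overlapped them at Week-2.

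Over all 15 dogs no relation between 2 member genes passed its permutation test. Over the brightest probe sets, Pearson r between members ran from -0.407 for KCND3 with KCNJ2 (rho = -0.429, permutation p = 0.13 and 0.113, adjusted p = 0.486 and 0.509) to 0.224 for KCNIP2 with KCNJ2 (rho = 0.275, p = 0.422 and 0.321, adjusted p = 0.921 and 0.722). For KCND3 with KCNIP2, pore and partner of 1 channel, r was 0.117 (rho = 0.107, permutation p = 0.678 and 0.702, adjusted p = 0.921 and 0.845). Without the 2 dogs farthest from the median, these r values were -0.38, 0.176 and -0.134. Without the 5 dogs numbered 2, a setting added after their values were seen, r over 10 dogs was -0.663 for KCND3 with KCNJ2 (rho = -0.685, permutation p = 0.0411 and 0.034, adjusted p = 0.123 and 0.153). For KCNA5 with KCNIP2 it went from -0.028 to -0.728 (rho = -0.624, permutation p = 0.0156 and 0.06, adjusted p = 0.0702 and 0.18), and to -0.473 without the 2 farthest of those 10 dogs. For KCND3 with KCNIP2 it was 0.485 (rho = 0.442, permutation p = 0.153 and 0.202, adjusted p = 0.344 and 0.417). These r values of KCNIP2 thus moved when the dogs numbered 2 were left out, as did that of KCND3 with KCNJ2. None of these relations passed at an adjusted p under 0.05 in the permutation test, and the changes in r were not tested. Over all 15 dogs, the adjusted permutation p for r of the 6 relations between members was 0.486 or more, out of 9 relations computed.

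The genes whose signals ran most alike with each member over the 15 dogs are named as a description; the 15 dogs fall into 5 groups, both genes of a pair were read on the same arrays, and the highest r among 14301 probe sets is high by selection. For KCNIP2 these were TRAPPC8 (r = 0.838), a membrane trafficking subunit, BECN1 (0.828), an autophagy protein, and NAA15 (0.817), part of an N-terminal acetyltransferase. The most opposite were WDR45 (-0.867), an autophagy protein, CD151 (-0.85), a tetraspanin, and DAG1 (-0.836), which encodes dystroglycan of the muscle membrane. BECN1 ranged only from 8.04 to 8.78 and DAG1 from 9.43 to 9.85, far less than KCNIP2 itself. KCNA5 ran most alike with ANKRD29 (0.862), NOS3 (0.83), the endothelial nitric oxide synthase, and CD34 (0.813), a surface protein of endothelial and progenitor cells, and most opposite to EPB41L3 (-0.788), B4GALT4 (-0.783) and RSL1D1 (-0.78). KCND3 ran most alike with CTSF (0.78), a lysosomal protease, TOMM22 (0.753), a mitochondrial import receptor, and RGL2 (0.739). Most opposite to it were CALU (-0.815), a calcium-binding protein of the endoplasmic reticulum, ATP2B4 (-0.777), a plasma membrane calcium pump, and RIC1 (-0.734). KCNJ2 ran most alike with GPN3 (0.758), LZTFL1 (0.749) and COQ9 (0.74), a coenzyme Q biosynthesis protein, and most opposite to SYNRG (-0.778), PDCD5 (-0.77) and ADIPOQ (-0.742), the adipocyte hormone adiponectin.

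The other genes of cardiac excitability were taken from lists of channels and their regulators. Of the listed genes, 4 of 21 other voltage-gated potassium pores, 5 of 19 accessory subunits, 2 of 14 inward rectifiers, 0 of 18 two-pore and calcium-activated channels and 6 of 34 sodium, calcium and pacemaker channels were measured. For anchoring and trafficking proteins it was 19 of 36, and for regulators of repolarisation genes 16 of 45. Of these 52 genes 0 rose and 0 fell in any comparison, with a smallest adjusted p of 0.127 in limma. Over all 14301 probe sets only 0.0% to 0.301% passed in these comparisons, so this count does not set the listed genes apart. Against Day-0 at End-stage, 0 of 4 voltage-gated pores lay above 0, with a median difference of -0.31 against -0.016 over all 5278 genes. For accessory subunits 1 of 5 lay above 0 (median -0.13), and for inward rectifiers 1 of 2 (median -0.25). The other lists had 1 of 6 (sodium, calcium and pacemaker channels, -0.15), 10 of 19 (anchoring, 0.005) and 6 of 16 above 0 (regulators, -0.09), where 46.8% of all 5278 genes lay above 0. At an unadjusted p under 0.05 there, these counts were 0 of 4, 0 of 5, 1 of 2, 1 of 6, 3 of 19 and 1 of 16, where 9.28% of all 5278 genes had such a p. The directions were not the same at every stage. Above 0 at Week-2 were 1 of 4 voltage-gated pores (median -0.086), 5 of 5 accessory subunits (0.13) and 0 of 2 inward rectifiers (-0.423). For the other lists, in the same order, it was 3 of 6 (-0.008), 8 of 19 (-0.017) and 9 of 16 (0.062), against 47.3% of all genes.

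KCNJ8, the pore of a vascular ATP-sensitive potassium channel, had a mean of 9.23 ± 0.11 (SD, n = 3 dogs) at Day-0 and 8.52 ± 0.12 at End-stage, a difference of -0.71 (SE 0.23, adjusted p = 0.346). KCNJ12, another cardiac inward rectifier pore (Kir2.2), went from 6.50 ± 0.64 to 6.72 ± 0.04 (adjusted p = 0.94). KCNH2, the pore of the rapid delayed rectifier, read 9.88 ± 0.07 at Day-0 and 9.86 ± 0.34 at End-stage (adjusted p = 0.993), and was lowest at Day-3 with 9.58 ± 0.09 (adjusted p = 0.615). The other pores named by the rule, KCNS3, KCNC1 and KCNA2, had End-stage differences of -0.44, -0.41 and -0.21, and the accessory subunits KCNMB1, KCNE3, LRRC52 and KCNMB4 of -0.35, -0.13, -0.12 and 0.10 (adjusted p from 0.639 to 0.976). FHL1, a LIM protein of the sarcomere, was 0.92, 0.79, 0.78 and 0.89 above Day-0 at the 4 stages (SE 0.29, adjusted p = 0.355, 0.4, 0.324 and 0.351) and 0.84 above it over all paced groups (adjusted p = 0.127). DYNC1H1, a dynein heavy chain, lay 0.46 above Day-0 at End-stage, RAB11A, a recycling endosome GTPase, 0.28 and FHL2 -0.34 (adjusted p = 0.45, 0.462 and 0.785).

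Among the remaining channels, the calcium channel subunits CACNB3, CACNA1C and CACNB2 had End-stage differences of -0.53, -0.20 and -0.42 (adjusted p = 0.438, 0.884 and 0.643) and the sodium channel SCN10A of -0.11 (adjusted p = 0.927). The regulators THRB and THRA, thyroid hormone receptors, MTOR, a growth kinase, and KLF4, a zinc-finger factor, had End-stage differences of -0.29, -0.15, 0.61 and -0.19, and none passed in any comparison. The average log2 difference of the paced dogs numbered 2 from the other paced dogs lay, over these 52 genes, between -1.12 for GJA1, the gap junction protein connexin 43, and 0.45 for LRRC52. Chosen after their values were seen, MEF2C, a cardiac transcription factor, and CACNA1H, a T-type calcium channel pore, had -0.77 and -0.72, so that no listed gene reached the -1.39 of KCNIP2 1595906_s_at.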

How the data were processed

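Per the submitters' processing notes, the authors made the values with GCOS 1.4 and MAS5. Deposited was 1 linear signal intensity for each probe set and array, scaled by the authors: the trimmed mean was between 150.02 and 150.026 on each array. A genome build was not given in the sources used here. Of 23913 probe sets, 77 controls were dropped. Names came from the array's 2016 annotation and the RefSeq gene table of UU_Cfam_GSD_1.0. The log2 of each signal was taken with no pseudocount, and a dog's value is the mean of its isolations. Probe sets in the lowest 40% of mean log2 signal (under a signal of 22.8) were not tested, which left 14301. One limma model (version 3.58.1, R 4.3.3) with a mean per group and eBayes with trend gave two-sided p values, adjusted by Benjamini-Hochberg over these 14301 at a threshold of 0.05. The scripts were tested on simulated data. Permutation tests were coded in Python 3.11.15. SciPy 1.17.1 gave the ranks for Spearman rho and the Benjamini-Hochberg adjustment of the permutation p values. The precision is limited by the number of dogs.

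The members, lists, comparisons and rules were chosen with earlier results of these data known. Named genes were all members; the 3 most alike and 3 most opposite genes by Pearson r over dogs for each member's brightest probe set; and up to 4 genes of each pathway list with the smallest F test p. Alternatives covered scaling, filters, model, isolations, single dogs and the dog number as a replicate block. By correlated deviations from group means (r above 0.1 in all 3 pairs), equal numbers paired dogs of Week-1 with Day-3 (r = 0.167, 0.296 and 0.318) and of End-stage with Week-2 (r = 0.23, 0.242 and 0.102). This pairing rests on the data alone, since the labels give no shared litter or day.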

Additional observations from a re-analysis of the deposited data

How the results depend on the processing

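No member probe set passed the threshold in any of 9 comparisons, in the main fit or under 29 other settings. Not every setting covered all 9 comparisons. The 203 counts, which include those of the main fit, were all 0, with a smallest adjusted p of 0.245 in limma. With the dog numbers as a replicate block the member count was also 0 in every comparison. Over all probe sets the block moved the count from 4 to 17 at Week-1, from 12 to 88 at Week-2 and from 43 to 219 for all paced groups, but from 2 to 0 at End-stage. Leaving out 1 dog gave 0 to 23 at Day-3 (23 without Day-3 dog 1), 0 at Week-1 in all 6 cases, 0 to 20 at Week-2 (0 without Week-2 dog 2), 0 to 6 at End-stage (6 without End-stage dog 1), and 1 (without Day-0 dog 2 or 3) to 111 (without Day-3 dog 1) for all paced groups. With all 45 arrays and the dog as a random block these were 377, 483 and 701, and Day-3 and End-stage went from 0 and 2 to 273 and 322. Of 817 values of 38 member results, 756 kept their direction within the margins, 60 turned, and KCNA5 at Week-2 moved to -0.30 when the mean over its probe sets replaced the brightest, which averages -0.11 and -0.48. For the values that turned the cause was not tested.

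Without isolation 1 of every dog, KCND3 1583047_at over all paced groups turned to 0.018. Without isolation 2, KCND3 1586127_at at Day-3 turned to 0.15 and KCNA5 1600424_at at Week-2 to 0.20. Without isolation 3, KCNIP2 at Day-3 turned to 0.053 and 0.038 in its probe sets, KCNJ2 to -0.23, -0.077, -0.027 and -0.26 at the 4 stages and -0.15 over all, KCND3 1586127_at to -0.18 at Week-1 and -0.093 over all, and KCNA5 1600424_at to 0.022 at End-stage. Quantile normalisation turned KCNJ2 at Day-3 to -0.074 and KCND3 1586127_at over all paced groups to -0.003, and median centring turned KCNJ2 at Day-3 to -0.054. Without Week-1 dog 1 and End-stage dog 1, KCNJ2 at End-stage turned to -0.145. Without the 5 dogs numbered 2, KCND3 1586127_at turned to 0.049 at Day-3 and -0.077 over all, KCNJ2 at Week-1 to -0.072, KCNIP2 1595906_s_at to 0.456 at Day-3, 0.215 at End-stage and 0.33 over all, and 1582775_at to 0.43, 0.19 and 0.34.

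With 1 dog left out in turn, KCND3 1586127_at ran from -0.23 to 0.215 at Day-3, -0.084 to 0.42 at Week-1, -0.036 to 0.45 at Week-2, -0.48 to 0.125 at End-stage and -0.17 to 0.27 over all. KCNIP2 1595906_s_at ran from -0.38 to 0.45 at Day-3, -0.37 to 0.85 at Week-1, -0.65 to 0.21 at End-stage and -0.355 to 0.076 over all. KCNIP2 1582775_at ran from -0.69 to 0.525, -0.45 to 0.95, -1.23 to 0.28 and -0.46 to 0.036 in the same order. KCNA5 1600424_at ran from -0.25 to 0.043 at Week-2 and -0.23 to 0.064 at End-stage, and KCNJ2 from -0.38 to 0.25 at Day-3 and -0.145 to 0.505 at End-stage.

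The KCNIP2 deficit of paced dogs numbered 2 lay between -1.26 and -1.61 in 1595906_s_at and between -1.78 and -2.34 in 1582775_at under 7 other settings. Limits: 3 dogs a group, 1 probe set for KCNJ2, and MAS5 signals without detection calls here.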
